A study of Mus musculus with 36 samples.

Results

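The myogenic regulators described here are 10 genes that control how muscle is built and repaired: Myod1, Myog, Myf5, Myf6, Pax7, Pax3, Mef2a, Mef2c, Cdh15 and Mstn. They were found by the gene symbol of the probe annotation. All 10 were measured, each by 1 oligonucleotide printed as 2 spots, among 6540 genes with a symbol and 16416 spots in all. The arrays held cRNA from quadriceps of mice deficient in beta-sarcoglycan (BSG) or in gamma-sarcoglycan (GSG), both models of limb-girdle muscular dystrophy. The 36 mice covered 9 ages, the youngest being 1 week and 2.5 weeks, then every second week from 4 up to 14 weeks, and last 20 weeks, with 2 individuals of each strain at each age. Each of 36 dual-channel arrays paired mice of neighbouring ages, and a last array paired 20 weeks with 1 week, so that 9 arrays closed a loop of 9 mice and each strain had 2 loops. A sarcoglycan was missing from every mouse compared below, and unaffected (WT) and MDX mice were not analysed here, so that changes with age in these muscles include both growth and disease.

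Myogenic regulators act in sequence. Pax7 and Pax3 mark muscle stem cells, the satellite cells, which lie quiet beside each fibre until injury. Once activated these cells express Myf5 and Myod1 and divide, then express Myog and stop dividing, and finally fuse into fibres, where Myf6 and the MEF2 factors maintain muscle genes. Cdh15 encodes M-cadherin, the adhesion molecule at the contact between satellite cell and fibre, and Mstn encodes myostatin, a secreted protein made by fibres that limits muscle growth. Repeated damage in sarcoglycan-deficient muscle is known to bring cycles of this program, while in healthy muscle the satellite cells become fewer per fibre and quieter in the weeks after birth.

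The basic helix-loop-helix factors Myod1, Myog, Myf5 and Myf6 bind the E-box, CANNTG. Promoters of 7 of the 10 genes were found in the RefSeq table (build GRCm38.p6), and those of Cdh15 and Myog are printed because these genes had the smallest p-values in the comparison of 20 weeks with 1 week. Each runs from 250 bases before to 50 bases after the start site on the plus strand, at chr8:122848124-122848423 for Cdh15 and chr1:134289754-134290053 for Myog, with the E-boxes in capitals.
Cdh15: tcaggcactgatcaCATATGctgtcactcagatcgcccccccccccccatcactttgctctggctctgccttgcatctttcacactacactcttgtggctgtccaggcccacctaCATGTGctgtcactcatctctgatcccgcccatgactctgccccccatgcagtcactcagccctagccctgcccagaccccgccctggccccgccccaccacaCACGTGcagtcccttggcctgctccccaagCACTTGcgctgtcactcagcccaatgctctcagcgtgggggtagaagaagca
Myog: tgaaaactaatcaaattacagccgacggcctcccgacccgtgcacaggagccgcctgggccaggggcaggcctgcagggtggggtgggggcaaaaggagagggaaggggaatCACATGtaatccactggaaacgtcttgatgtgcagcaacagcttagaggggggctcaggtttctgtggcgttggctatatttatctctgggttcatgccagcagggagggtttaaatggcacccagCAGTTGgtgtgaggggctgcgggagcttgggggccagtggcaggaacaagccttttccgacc
The Cdh15 window holds 4 E-boxes, which begin 236, 135, 32 and 2 bases before the start site. The Myog window holds 2, which begin 138 and 12 bases before it. Of 32851 promoters of this length, counted with 1 chromosome left out, 72.3% hold at least 1 E-box, with a mean of 1.39. Overlapping matches were counted, and the E-box reads alike on both strands. The form with a GC core, CAGCTG, is found in 16.3% of the counted promoters and in neither of those printed. The MEF2 motif was searched on both strands as YTAWWWWTAR, where Y is C or T, W is A or T and R is A or G. It was found in 3.2% of the counted promoters, and of the promoters of the 7 genes only that of Mef2a held this exact pattern. The Myog window holds ctatatttat, which misses the pattern by its last base, and looser forms were not searched. The Mstn promoter held 4 E-boxes, and those of Myf5 and Pax7 held 0. Myod1, Myf6 and Pax3 had no entry. A match is a description of the letters in this window and not a binding site.

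Values are log-ratios of the channels, likely to base 2 and likely with Cy5 as the numerator. On most arrays this puts the older mouse over the younger, and on the array closing each loop it puts 1 week over 20 weeks. For each mouse the level of a gene was expressed against the 1-week mouse of its own loop, by least squares over the 9 arrays of the loop. With this direction Dlk1, a gene of fetal and newborn muscle, was lower at 20 weeks by -3.30 ± 0.17 (SE) and the fetal RNA H19 by -2.23 ± 0.32, with adjusted p = 1.23e-12 and 5.99e-05 in limma. Igf2 gave 0.12 ± 0.16 (adjusted p = 0.842). The file gives no intensities, so that neither expression nor background of any gene in this muscle can be read from it, and the labelled tissue can be checked by changes alone. Duplicate spots correlated over all oligonucleotides of an array with a median r of 0.54, from -0.10 to 0.77, and r was under 0.3 on 9 arrays, namely 4 arrays of BSG loop 1, 4 of GSG loop 1 and 1 of GSG loop 2. In whole muscle, fewer cells of a type and less RNA per cell cannot be told apart.

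Between 1 and 20 weeks 1 of the 10 regulators passed the test over both strains: Cdh15, which fell (limma, Benjamini-Hochberg adjustment over 8129 oligonucleotides). This is against 5.79% of all oligonucleotides called in either direction and 4.10% called lower. In BSG alone 0 of 10 were called, against 1.28% of all, and in GSG alone 0 of 10, against 3.74%, with 2 of 10 at an unadjusted p under 0.05 in each strain, against 11.6% of all in BSG and 14.7% in GSG. The median change of the 10 was -0.07, and that of all oligonucleotides -0.01. Cdh15, Myog and Pax7 were lower at 20 weeks in all 4 loops, 3 of 10 against 13.5% of all oligonucleotides. None was higher in all 4 loops, against 8.72% of all.

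**Figure D1:**
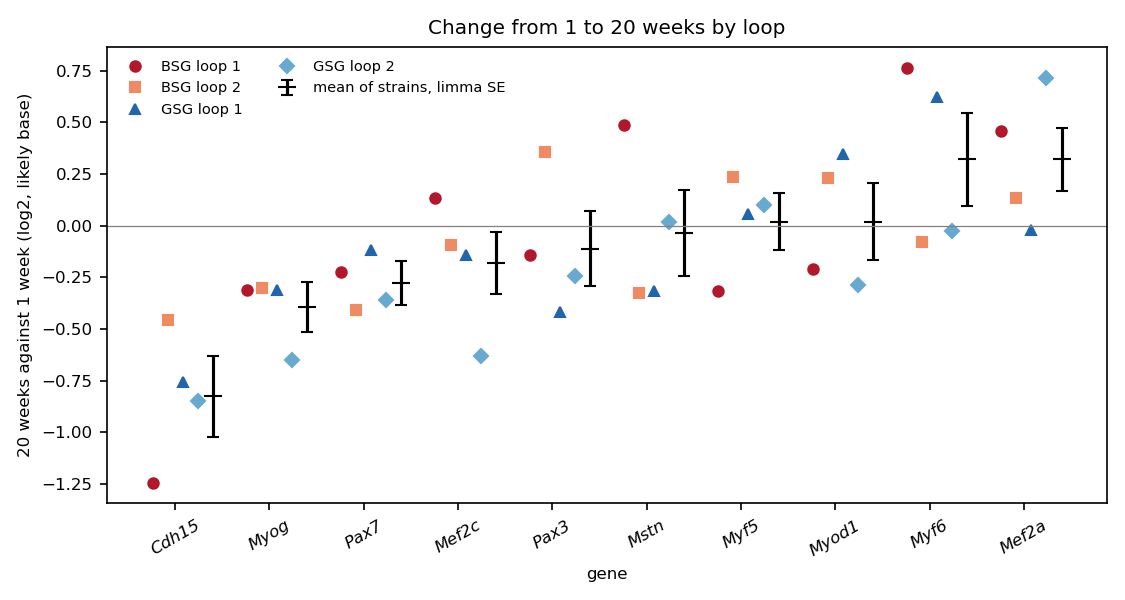
Change from 1 to 20 weeks (log2, likely base) for each of the 10 genes, with 1 symbol for each loop, that is a 20-week mouse against the 1-week mouse of its loop, and the mean of the strains with its limma SE as a bar. Cdh15 lies lowest, from -1.24 to -0.46, Myog and Pax7 lie below 0 in all 4 loops, and the loops of the other 7 genes lie on both sides of 0.

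Cdh15 was lower than in the 1-week mouse of the loop in 30 of 32 later mice, and 3.3% of all oligonucleotides had at least as many below. The 8 later mice of BSG loop 1 had log-ratios of -0.64, 0.08, -0.43, -0.35, -0.15, -0.43, -0.34 and -1.24 from 2.5 to 20 weeks. Those of BSG loop 2 had -0.37, -0.49, -0.61, -0.65, -0.63, -0.68, -0.65 and -0.46. The second loop was low from 2.5 weeks onward and flat, whereas the first had its lowest value at 20 weeks. The later mice of GSG loop 1 had -0.30, -0.15, -0.07, 0.02, -0.45, -0.23, -0.39 and -0.75. Those of GSG loop 2 had -0.28, -0.69, -0.67, -0.86, -0.14, -0.81, -0.77 and -0.85. In both GSG loops the 20-week mouse was among the lowest, and in the second loop the 8-week mouse was as low. All 8 mice of a loop share 1 mouse of 1 week as reference, so that these counts rest on 4 mice of that age.

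The mean change of Cdh15 from 1 to 20 weeks was -0.83 ± 0.20 (95% interval -1.23 to -0.42, adjusted p = 0.00963), which in base 2 is 56.4% of the 1-week level (interval 42.6% to 74.6%). Both strains gave like values, -0.85 ± 0.28 for BSG (adjusted p = 0.153) against -0.80 ± 0.28 for GSG (adjusted p = 0.118), and neither passed alone. At 2.5 weeks the mean was already -0.40 ± 0.20 and lower in all 4 loops (adjusted p = 0.609). From 4 to 14 weeks the means lay between -0.54 and -0.31 with SE of 0.26 to 0.31. The 2 spots gave -0.87 and -0.79 and correlated over the arrays with r = 0.87, higher than 95.5% of oligonucleotides. The call was lost without BSG loop 1 (-0.63, adjusted p = 0.293) and without GSG loop 2 (-0.80, adjusted p = 0.101), and with arrays scaled to 1 spread (-0.60, adjusted p = 0.0877).

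**Figure D2:**
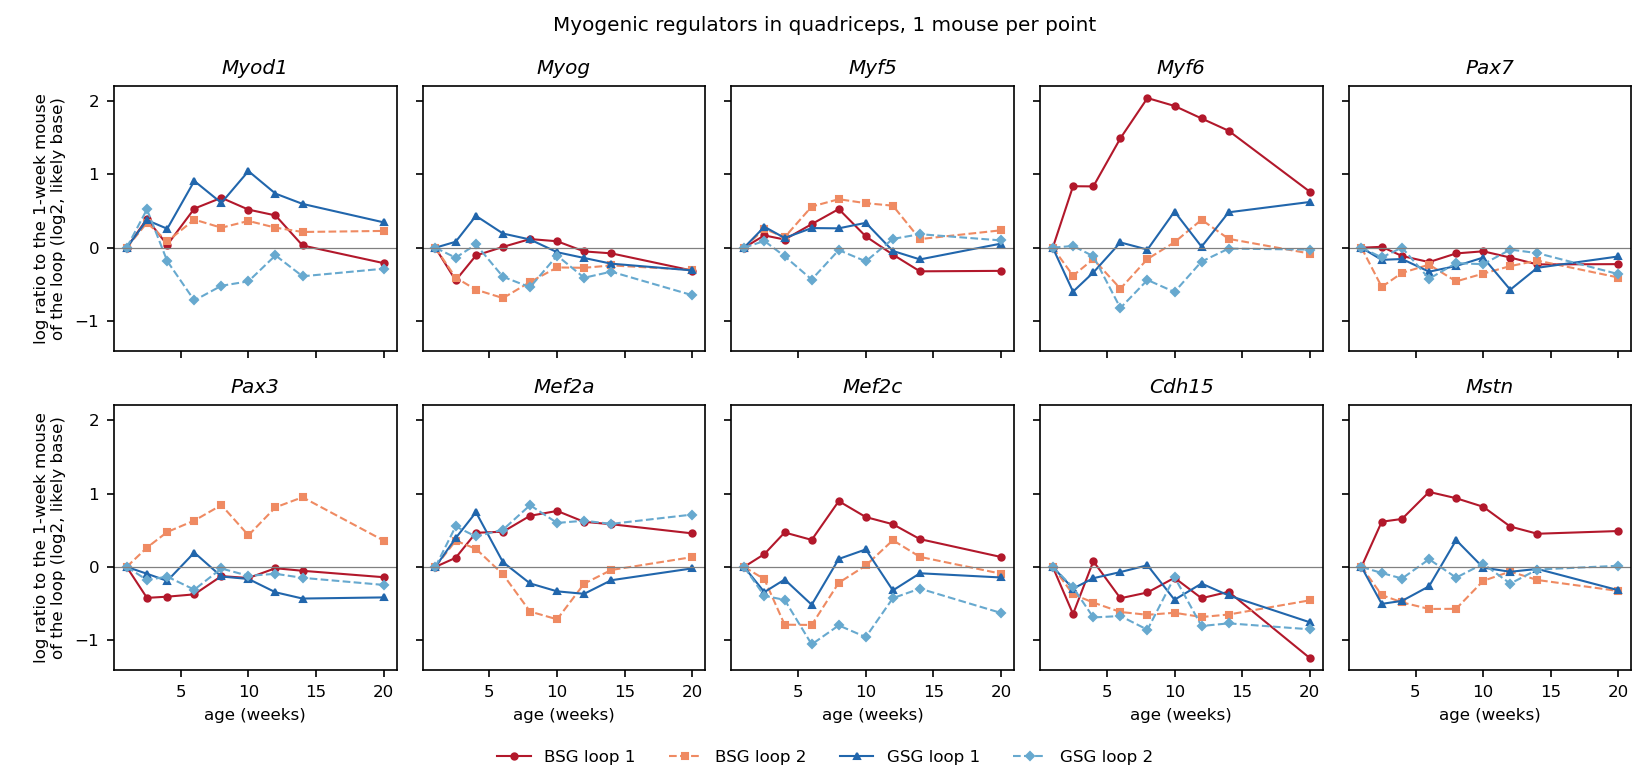
Log-ratio of each mouse to the 1-week mouse of its loop (y axis, log2, likely base) against age in weeks (x axis), with 1 panel for each gene and 1 line for each of the 4 loops. Cdh15 and Pax7 stay at or below 0 in nearly all mice, Myf6 reaches 2.04 in BSG loop 1 alone, and Pax3 is above 0 throughout in BSG loop 2 alone.

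Myog, the factor of the differentiating myoblast that has left the cell cycle, had log-ratios at 20 weeks of -0.31 and -0.30 in BSG and of -0.31 and -0.65 in GSG. All 4 mice were below 1 week and 3 of them nearly alike. The mean was -0.39 ± 0.12 (interval -0.64 to -0.14, adjusted p = 0.0574, limma), just outside the threshold. Over all later mice Myog ran from -0.69 to 0.43 with a median of -0.23, and 24 of 32 were below 1 week. At least as many were below for 16.3% of all oligonucleotides, and this count rests on the same reference mice as that of Cdh15. At 2.5 weeks BSG had -0.45 and -0.41 and GSG 0.08 and -0.14, and at 4 weeks BSG had -0.11 and -0.57 and GSG 0.43 and 0.04. The strain difference at these ages rests on 2 mice each and was not tested. Myog was called together with Cdh15 in 6 of 19 alternative fits, among them the fit with a dye term (adjusted p = 0.0105), and remained below 0 in all 19. Its spots gave -0.30 and -0.49, and r between them was 0.49.

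Myod1 and Myf5, the factors of the activated and dividing myoblast, were near their 1-week level at 20 weeks, with means of 0.02 ± 0.19 and 0.02 ± 0.14 (limma, adjusted p = 0.988 and 0.984). The intervals, -0.36 to 0.40 and -0.27 to 0.31, leave room for changes of either sign. At 2.5 weeks Myod1 had log-ratios of 0.39 and 0.34 in BSG and of 0.38 and 0.52 in GSG. All 4 mice were thus above their 1-week mouse, by a mean of 0.41 ± 0.19, which did not pass (adjusted p = 0.543). Later the GSG loops parted, and at 6 weeks Myod1 was 0.91 in their first loop and -0.72 in their second, the widest gap between mice of 1 age and strain for this gene. Myf5 had 0.17, 0.26, 0.29 and 0.09 at 2.5 weeks, also above 1 week in all 4 loops (mean 0.20 ± 0.14, adjusted p = 0.836). At 8 weeks Myf5 was at 0.53 and 0.66 for the BSG mice, against 0.26 and -0.03 for the GSG mice. With 2 mice of each strain, this difference was not tested.

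Myf6, the factor most abundant in mature fibres, varied most among the 10. In BSG loop 1 its log-ratios were 0.84, 0.84, 1.49, 2.04, 1.93, 1.76, 1.59 and 0.76 from 2.5 to 20 weeks. In the other 3 loops the later mice lay between -0.82 and 0.62. Only the mice of BSG loop 1 were far above 1 week, and at 8 weeks the second BSG mouse had -0.15 and the GSG mice -0.03 and -0.44. Mean changes did not pass the test: 0.32 ± 0.23 from 1 to 20 weeks (adjusted p = 0.571) and 0.38 ± 0.34 from 2.5 to 8 weeks (adjusted p = 0.940). The latter was 0.14 without BSG loop 1 and 0.13 without GSG loop 1, but 0.63 without BSG loop 2 and 0.64 without GSG loop 2. Without the 9 arrays of discordant spots it was -0.17 ± 0.61, and 0.36 ± 0.73 when the channel offset described below was fitted as well. In BSG loop 1 at 8 weeks Mstn was also at 0.94, Mef2c at 0.90, Mef2a at 0.70 and Myod1 at 0.68. There 7 of the 10 genes were above 1 week, against 45.3% of all oligonucleotides, and the arrays that led from 6 to 14 weeks in this loop had duplicate r of 0.24, 0.02, -0.10 and 0.19. The part of these arrays in the high Myf6 values was not tested.

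Pax7, the defining factor of the satellite cell, was below 1 week in 30 of 32 later mice. In BSG its log-ratios at 20 weeks were -0.22 and -0.41, and in GSG -0.12 and -0.36. The log-ratios were small at all ages, with the lowest mouse at -0.57, the median at -0.22 and the highest at 0.01. The mean at 20 weeks was -0.28 ± 0.11 (interval -0.50 to -0.06, limma adjusted p = 0.152), with -0.32 ± 0.15 in BSG and -0.24 ± 0.15 in GSG. It was below 0 in all 19 alternative fits and called in 0 of them. Of all oligonucleotides, 3.3% had as many mice below their 1-week mouse. As for Cdh15, this count shares 4 reference mice.

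Pax3, the relative of Pax7 that acts mostly in the embryo, was above 1 week in all 8 later mice of BSG loop 2, at 0.26 to 0.95. In BSG loop 1 its later mice lay between -0.42 and -0.02. As for Cdh15, all mice of a loop share 1 reference mouse. The GSG mice lay between -0.43 and 0.20. Its 2 spots did not track each other (r = -0.005 over 36 arrays), and gave 0.08 and -0.30 at 20 weeks. No level of Pax3 can be read from such spots with confidence, and the mean change of -0.11 ± 0.18 has this limit.

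Mef2a and Mef2c are partners of the myogenic factors in the activation of fibre genes, and no test compared their courses. Mef2a had log-ratios of 0.12, 0.36, 0.39 and 0.55 at 2.5 weeks, above 1 week in all 4 loops (mean 0.36 ± 0.15, limma adjusted p = 0.488). At 20 weeks the BSG mice had 0.46 and 0.13 and the GSG mice -0.02 and 0.71, with a mean of 0.32 ± 0.15 (adjusted p = 0.294). Its spots also failed to track each other (r = 0.06), and the first gave 0.10 where the second gave 0.55. Mef2c had spots of r = 0.69 and its lowest mean at 6 weeks, from 0.37 and -0.79 for BSG and -0.52 and -1.06 for GSG. Of these 4 mice 3 were well below 1 week, and by 20 weeks Mef2c was at 0.13 and -0.09 in BSG and at -0.14 and -0.63 in GSG. Its mean change at 20 weeks was -0.18 ± 0.15 (adjusted p = 0.666).

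Mstn split by loop in the BSG strain. In BSG loop 1 its later mice lay between 0.45 and 1.02, and in BSG loop 2 between -0.57 and -0.06. The 2 loops of the same strain thus had opposite signs at all 8 later ages. All 8 mice of a loop share 1 reference mouse of 1 week, so that these signs are not independent. In GSG the later mice lay between -0.50 and 0.37. The mean change at 20 weeks was -0.04 ± 0.21 (interval -0.46 to 0.39, limma adjusted p = 0.976).

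**Figure D3:**
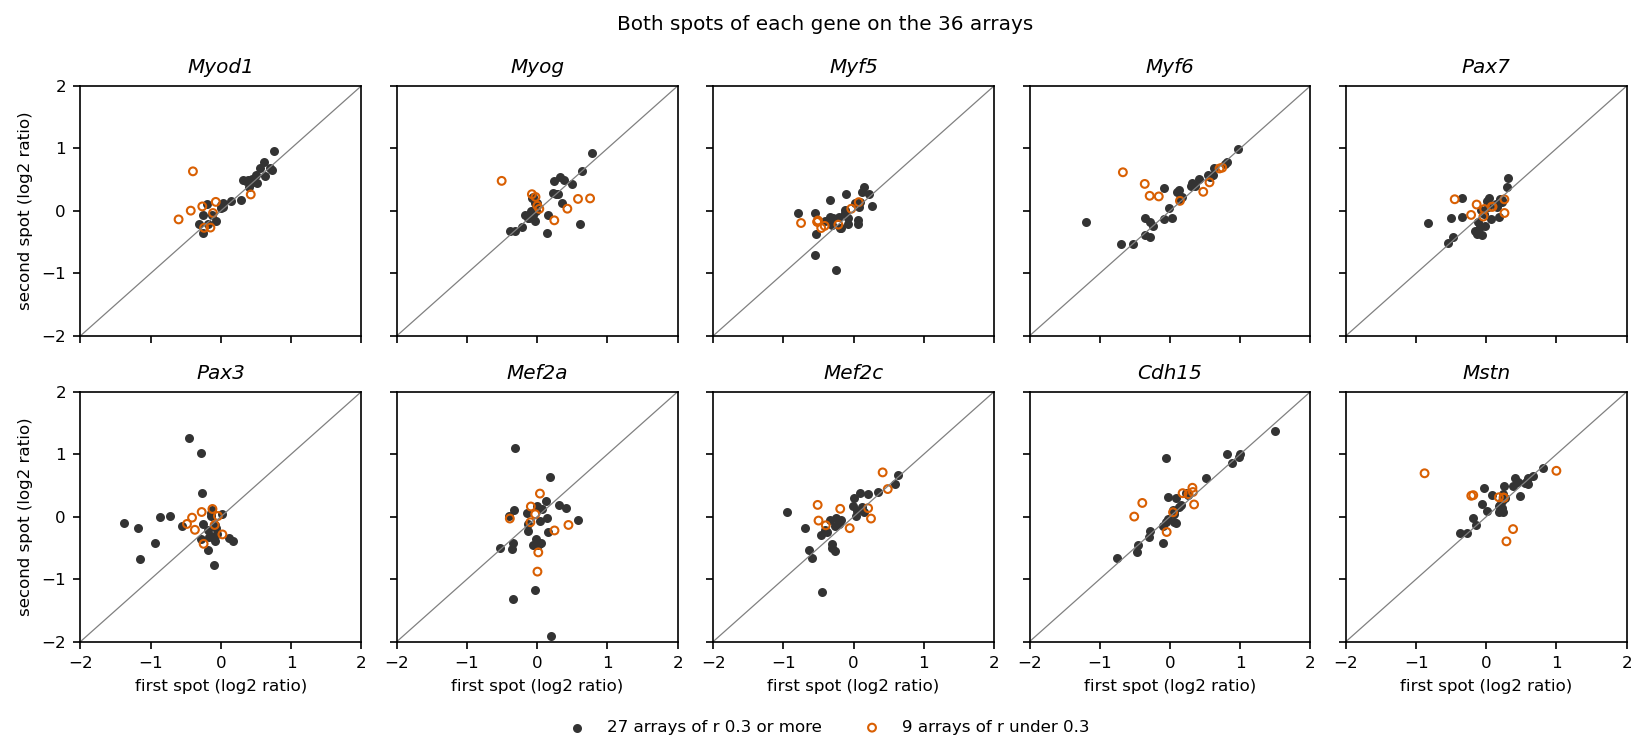
Log-ratio of the second spot (y axis, log2) against that of the first (x axis, log2) on each of the 36 arrays, with 1 panel for each gene, a grey line of identity, filled points for the 27 arrays with duplicate r of 0.3 or more and open points for the other 9. Points follow the line for Cdh15 (r = 0.87), Myod1 (0.82) and Myf6 (0.77) and form a cloud for Mef2a (0.06) and Pax3 (-0.005).

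The duplicates set how far each gene could be read. Over 36 arrays r was 0.87 for Cdh15, 0.82 for Myod1, 0.77 for Myf6 and 0.69 for Mef2c. It was 0.56 for Pax7, 0.50 for Myf5, 0.49 for Myog and 0.44 for Mstn, against a median of 0.32 over all oligonucleotides. Hence 8 of the 10 genes had better duplicates than most of the array, and Mef2a and Pax3 were among the poorer. On the 27 arrays with r of 0.3 or more, Myod1 reached 0.95, Cdh15 0.91, Myf6 0.90 and Mstn 0.88.

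A closed loop offers a check, since its 9 log-ratios should sum to 0 apart from noise. For 8 of the 10 genes the sum had the same sign in all 4 loops, as for 50% of all oligonucleotides. Mstn had sums of 1.60, 2.48, 2.13 and 2.88, and Myod1 of 1.77, 1.25, 0.40 and 3.03. Pax3 had -2.38, -2.91, -0.12 and -2.32, and Myf5 -0.89, -1.57, -1.93 and -1.22. Pax7 came nearest to closing, from -0.69 to 0.09. An offset of the Cy5 over the Cy3 channel fitted as 1 term per oligonucleotide was called for 7 of the 10 genes and for 36.1% of all, with values from -0.21 for Pax3 to 0.25 for Mstn. The labels give Cy5 to the later age on 8 arrays of a loop and to the 1-week mouse on the closing array, so that each mouse is once in either channel. The term is therefore separate from the ages and left all estimates as they were, while it lowered the residual SD of Mstn from 0.467 to 0.329 and of Myog from 0.251 to 0.190. Whether it comes from the dyes was not tested.

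**Figure D4:**
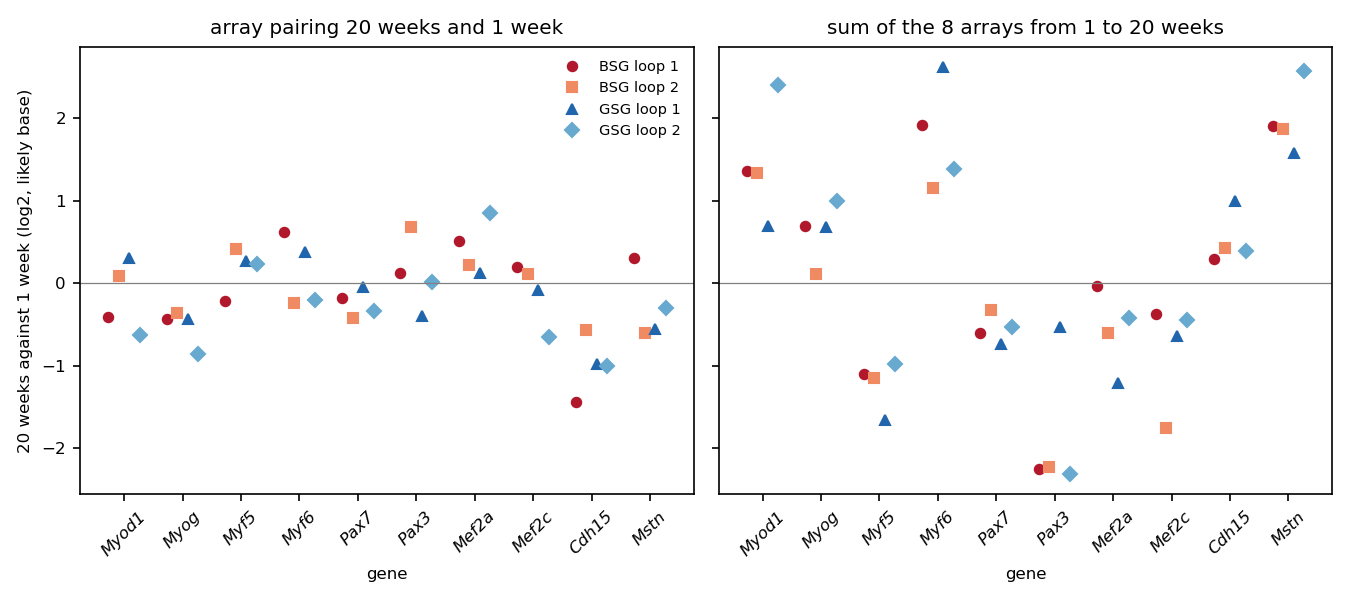
Log-ratio of 20 weeks to 1 week (y axis, log2, likely base) for each gene and loop, on the left from the single array that paired these ages and on the right from the sum of the 8 arrays that lead from 1 to 20 weeks. The channel offset was not removed, and it enters each of the 8 summed arrays. For Cdh15 the single arrays give -1.43 to -0.57 and the sums 0.29 to 1.00, and for Pax7 both lie below 0.

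The comparison of 20 weeks with 1 week rests mainly on the array that pairs these ages. For Cdh15 this array gave -1.43, -0.57, -0.97 and -1.01, whereas the 8 other arrays of each loop summed to 0.29, 0.42, 1.00 and 0.39. The 2 routes had opposite signs in all 4 loops, and the loop estimate spreads their disagreement evenly over the 9 arrays. The channel offset was not removed from either route. It enters each of the 8 summed arrays, and enters the single array with the opposite sign. Per array the fitted offset was 0.17 for Cdh15 and 0.13 for Myog, so that these sums are not a measure of a rise. Its part in the disagreement was not tested. For Myog the single arrays gave -0.44, -0.35, -0.43 and -0.85 and the sums 0.69, 0.12, 0.68 and 0.99, again of opposite sign. For Pax7 the single arrays gave -0.18, -0.42, -0.04 and -0.34 and the sums -0.60, -0.33, -0.74 and -0.53. Pax7 was thus lower by both routes in all 4 loops, with a fitted offset of -0.03 that was not called. Sums of genes with a larger offset hold more of it, so that the routes do not rank these genes. With the offset term Cdh15 kept -0.83 with SE 0.17 (limma adjusted p = 0.00227).

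Across all ages 0 of the 10 genes passed the moderated F test (limma), against 0.443% of all oligonucleotides, and 0 had an unadjusted p under 0.05. Myog, Cdh15 and Mef2c came first among them, at ranks 882, 924 and 1050 of 8129 by p. From 1 to 2.5 weeks 0 of 10 were called, against 0.418% of all, with Myod1 and Mef2a at an unadjusted p under 0.05, as were 8.43% of all. From 2.5 to 8 weeks 0 of 10 were called, against 0.0123% of all, and from 8 to 20 weeks 0 of 10, against 0% of all. In the last 2 comparisons no member had an unadjusted p under 0.05, while 185 of all 8129 oligonucleotides did so from 8 to 20 weeks. Of the 10 estimates from 8 to 20 weeks 9 were below 0, between -0.37 for Cdh15 and -0.03 for Pax7, and Mef2a had 0.15, while 54.2% of all oligonucleotides were below 0.

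The strains were compared to ask whether loss of beta- or of gamma-sarcoglycan gives another course. For the change from 1 to 20 weeks 0 of the 10 genes differed, against 0% of all oligonucleotides, of which 586 had an unadjusted p under 0.05. The difference BSG minus GSG was -0.05 for Cdh15 (interval -0.85 to 0.76), 0.17 for Myog (-0.33 to 0.68) and -0.08 for Pax7 (-0.52 to 0.37). The largest were 0.44 for Pax3 (-0.30 to 1.18) and 0.41 for Mef2c (-0.21 to 1.03). Intervals of this width do not show that the strains act alike. The temporal Hotelling test, with a polynomial of degree 2, called 0 of 10, against 0% of all, of which 358 had an unadjusted p under 0.05. Among the 10 genes Myf6 and Myog came first in this test, at ranks 1752 and 1846 of 8129 by p.

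Between the 10 genes the array log-ratios of Myog and Cdh15 went together most closely, with Pearson r = 0.68 over 36 arrays and 0.74 over the 27 with better duplicates. Myod1 and Myf5 followed with r = 0.62 on both sets, then Myf6 with Mef2c (0.46) and Pax7 with Mef2c (0.46). Over all oligonucleotides the genes most like Myog were Aloxe3, a lipoxygenase (r = 0.78), Casq2, a calcium-binding protein of the sarcoplasmic reticulum (0.76), and Tnnt1, the slow skeletal troponin T (0.75). All 3 were lower at 20 weeks than at 1 week, with changes of -0.78, -1.92 and -1.43 (limma adjusted p = 9.02e-05, 5.22e-06 and 0.0147). Neighbouring arrays share a mouse, so that these r are descriptions over arrays that are not independent.

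The wider pathway was read through lists of genes, each given by its count from 1 to 20 weeks in limma, beside 5.79% of all oligonucleotides. Genes named from them were chosen after their values were seen, except Dlk1, H19 and the members themselves. Of 20 oligonucleotides for myogenic regulators and their partners 1 was called: Tcf12, an E-protein that pairs with the myogenic factors, fell (-0.45, adjusted p = 0.0191), with 0.28 in BSG loop 1 and -0.40 to -0.90 in the other loops. The list had a median of -0.11. Of 19 for inhibitors of these factors 4 were called. Notch3 (-0.82), the Notch target Heyl (-0.66) and Msc, known as MyoR (-0.64), fell, and Bhlhe40 rose by 0.79. The inhibitors that fell were below 1 week in all 4 loops.

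Genes of the satellite cell surface and niche had 5 of 23 called, all lower, and a median of -0.33. Beside Cdh15 these were the receptors Fgfr4 (-1.12) and Calcr (-0.43), the FGF signalling inhibitor Spry1 (-1.06) and the laminin chain Lama2 (-0.98). All 5 were lower in every loop, with loop medians of the whole list of -0.50, -0.21, -0.21 and -0.54. Of 21 for adhesion and fusion of myoblasts 5 were called, 4 lower and 1 higher, with a median of -0.06. Beside Cdh15 the lower ones were Jam2 (-0.40), Cav3 (-0.88) and Cdc42 (-0.70), and the higher one was Gsn (1.09). That Cdc42 oligonucleotide was at 0.65 in BSG loop 1, and a second one for Cdc42 gave -0.08 (adjusted p = 0.923), so that the 2 disagree. Of 20 for the myostatin pathway 2 were called, both lower: Bmp1 (-0.40), a protease that activates myostatin, and Fstl1 (-1.06). A second oligonucleotide for Bmp1 gave -0.02 (adjusted p = 0.965), and the 2 thus disagree. The median there was -0.08.

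Genes of regenerating and newborn fibres had 4 of 15 called, all lower: Dlk1 (-3.30), H19 (-2.23), Cdkn1c (-2.03) and Csrp3 (-1.03). Of these Dlk1 alone also passed the test over all ages (adjusted p = 5.84e-08, limma). Their list had a median of -0.34. Of 22 for the cell cycle 3 were called, all lower, namely Mcm2 (-0.81), Cdk1 (-0.71) and Ccnd2 (-0.71), with a median of -0.14. Of 15 for adult muscle fibres 0 were called and the median was 0.24.

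Markers of other cells in the muscle moved in the same comparison. Macrophage markers had 5 of 9 called, all higher, with a median of 1.06 and loop medians of 1.37, 0.58, 0.60 and 1.33. Mpeg1 (1.71), Lgals3 (1.63), Cd52 (1.56), Adgre1 (1.15) and Cd68 (1.06) were higher in all 4 loops. Endothelial markers had 4 of 6 called, all lower (Pecam1, Cdh5, Kdr and Tie1), with a median of -0.46. Cdh15 had its largest change in BSG loop 1 and GSG loop 2, the 2 loops with the highest macrophage medians, but its GSG loops were close (-0.75 and -0.85). In BSG, Pax7 was lower in loop 2 (-0.41) than in loop 1 (-0.22), and Myog was alike in both (-0.31 and -0.30). In GSG both were lower in loop 2, Pax7 at -0.36 against -0.12 and Myog at -0.65 against -0.31. As the values are ratios, a marker at 0 cannot be seen, and the part of cell mixture in the changes of Cdh15, Myog and Pax7 was not tested.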

How the data were processed

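RNA of the quadriceps of 36 BSG and GSG mice was amplified to amino-allyl cRNA, labelled with Cy3 or Cy5 and hybridised to 36 arrays of 65-mer oligonucleotides printed in duplicate. The authors scanned them with GenePix, normalised for spatial, dye and across-array effects with smida, and deposited log ratios of the channels, here taken as log2. Neither base nor direction is stated: base 2 was taken as likely from extremes of -12.02 and 11.52, which do not settle it. The direction is likely, from the dyes in the labels and the fall of Dlk1. Groups came from the labels, and loops from the runs of numbers in the sample titles, which restart with each loop.

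The 2 spots of each of 8129 oligonucleotides were averaged (6752 with 1 symbol), with no filter and 0 missing values. All 36 arrays entered 1 linear model of 8 later ages against 1 week per strain (R 4.3.3, limma 3.58.1, lmFit and eBayes), with 20 residual degrees of freedom and Benjamini-Hochberg adjustment at 0.05. The temporal Hotelling test was written from the equations of the study. The number of arrays, 2 mice per age and strain, limits the precision. Tests were tried on simulated data. Python 3.11.15 and matplotlib 3.10.9 drew the figures.

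Named are all 10 members, up to 4 genes per pathway list that passed the test over all ages, the 3 genes most like the member with the smallest p in that test, and Dlk1, H19 and Igf2 as checks of direction; Myh3 and Myh8 were not analysed here. Others were named after their values were seen. Members and lists were chosen with earlier results of these data known. Alternatives were the animal as unit with the loop as block, loops as a random block, an offset term for the dyes, array centring and scaling, single or separate spots, leaving out arrays or loops, no moderation and other polynomials. Added after seeing the data were the offset term together with arrays or loops left out.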

Additional observations from a re-analysis of the deposited data

Results flagged for a closer look

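Myf5, a factor of activated myoblasts, was flagged because its change from 2.5 to 8 weeks differed between the strains. In the BSG loops the 8-week mouse was above the 2.5-week mouse, another animal, by 0.36 and 0.40. In the GSG loops the differences were -0.02 and -0.12. In either strain a difference within 1 loop is less precise than the mean over both strains, which had an SE of 0.21. BSG minus GSG was 0.455. The difference between the strains at these ages was not tested, and the mean over both strains, 0.15 ± 0.21, did not pass in limma (adjusted p = 0.960).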

How the results depend on the processing

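Of the 10 genes, Cdh15 was lower at 20 weeks in all 19 alternative fits and called in 15. The mean of the strains called 2 genes, Cdh15 and Myog, with loops as a random block, with the offset term for the dyes, with spots as separate observations, with second spots alone and without arrays of discordant spots. It called 0 with arrays centred and scaled. Leaving out 1 loop gave 0 to 1 genes, 0 without BSG loop 1 (Cdh15 -0.63) or GSG loop 2 (-0.80), and with the offset term 0 to 2. With 1 value per animal and the loop as replicate block it called 1, Cdh15 (adjusted p = 0.0150, limma), and this block changed no other call of a member. As a random block, with a correlation of 0.107 between arrays of a loop, the loops added Myog (adjusted p = 0.0190). Spots as separate observations called 1 gene, Cdh15, over all ages, in BSG and in GSG. The offset term called 1 gene in GSG, Myog (adjusted p = 0.0391), and with BSG loop 2 left out 1 in BSG, Cdh15. All other comparisons called 0 members in each fit. None of 1330 alternative estimates reversed a call. Over all oligonucleotides the 471 called at 20 weeks became 294 with 1 value per animal, 173 with scaled arrays, 275 with first spots alone and 114 to 461 without 1 loop, but 657 with the random block, 679 with the offset term, 702 with separate spots and 277 to 758 with the offset term and 1 loop left out. The strain difference, 0 as reported, reached 127 without BSG loop 2 and 318 with the offset term as well, where a lone mouse per age is assumed to vary like the others, and the temporal test reached 102 without that loop. The 36 called over all ages became 426 with separate spots, 90 with the offset term and 2 without the discordant arrays. Over all fits the counts of oligonucleotides ran from 1 to 639 in BSG (104 as reported, 16 with 1 value per animal), from 83 to 658 in GSG (304 and 145), from 1 to 195 at 2.5 weeks (34 and 5), from 0 to 54 from 2.5 to 8 weeks (1 and 40) and from 0 to 4 from 8 to 20 weeks (0 and 0). The cause was not tested. With 2 mice per age and strain and no intensities in the file, changes of the size of Myog and Pax7 lie near what these arrays can resolve.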

Other observations

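Other cells of the muscle were read through their markers, from 1 to 20 weeks as the mean of both strains (limma). Of all oligonucleotides 5.79% were called in this comparison. Of 7 oligonucleotides for fibroblasts 2 were called, both lower: the collagen chain Col1a1 (-1.90, adjusted p = 4.14e-05) in all 4 loops, and the matrix protein Postn (-1.34, adjusted p = 0.00524), with 0.19 in BSG loop 1 and -1.20 to -2.51 in the others. The fibroblast list had a median of -0.06 and ran from -1.90 to 0.80, so that it did not fall as a whole. Of 4 for Schwann cells 1 was called, the myelin gene Pmp22 (-1.04 ± 0.14, adjusted p = 3.96e-05), lower in all 4 loops, while the list median was -0.10. Of 4 for red blood cells 1 was called, Alas2, the first enzyme of haem synthesis in these cells (-0.83, adjusted p = 0.00119), with a list median of -0.46. Of 3 for adipocytes 1 was called, Adipoq, the hormone adiponectin (0.43, adjusted p = 0.0440), higher in all 4 loops, from 0.13 to 0.89. The adipocyte list as a whole had a median of 0.14. Its loop medians were 0.94 and 0.03 in BSG but -0.41 and -0.33 in GSG.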
